A study of Mus musculus with 3 samples.

Results

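Open chromatin far from the start sites of protein-coding genes was described in embryonic mouse liver (13.5 days). It was mapped in 3 libraries with DNase I, an enzyme that cuts accessible DNA. The regions are stretches open in every library that lie outside all protein-coding gene bodies and more than 100 kb from any protein-coding transcription start site (TSS). They were chosen by measured values: overlapping peaks of the libraries were merged, and a merged region was kept where replicates 1, 2 and 3 each had a peak. The rule found 668 regions, which are 2.57% of the 25972 regions shared by all 3 libraries and part of 131881 merged regions in all. It sets no distance to the ends of gene bodies and no length for the gap between genes. A desert region can thus lie close to the end of a gene or in a short gap. The libraries formed 1 group with no control tissue: embryos of the strain C57BL/6N,129, which the labels call WT with a single copy of the A20 YAC, a yeast artificial chromosome carrying a large cloned insert. The labels give all 3 libraries 1 donor and a biosample each, so how much of the spread between them is technical is not known. The embryonic liver is a mixed tissue, and no cell sorting is named in the labels. In such a sample, a region open in few cells and a region weakly open in many cells cannot be told apart.

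Gene deserts are long stretches without protein-coding genes, and open regions inside them are often enhancers, which loop to distant promoters, or sites of CTCF, the zinc-finger protein that anchors chromatin loops and domain borders. In the liver of the embryo most cells are red cell precursors, because this organ is the main site of blood formation before birth. Their enhancers are typically bound by GATA1 together with TAL1 at a composite sequence in which an E-box part precedes a GATA word by a fixed spacing. Hepatoblasts, the precursors of hepatocytes, instead use factors such as FOXA, HNF4A, HNF1 and C/EBP. A footprint is a short stretch inside a peak that is cut less than its surroundings, as a bound protein would leave it.

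The CTCF core, a motif of degenerate letters given here by name, was the most frequent of the long motifs searched in the desert regions. The 5 strongest desert regions with that core under a footprint in all 3 libraries are shown to let a reader see the letters at issue, with 10 bases on each side. Sequences are from the RefSeq copy of GRCm38 (mm10), are written 5′ to 3′ along the strand of the motif, and have the match in capitals.
CTCF match at chr1:7398202-7398233 (plus strand), nearest gene Pcmtd1: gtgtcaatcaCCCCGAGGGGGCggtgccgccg
CTCF match at chr2:39373307-39373338 (minus strand), nearest gene Ppp6c: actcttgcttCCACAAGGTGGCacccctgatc
CTCF match at chrX:94865723-94865754 (plus strand), nearest gene Zxdb: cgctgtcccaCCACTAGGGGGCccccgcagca
CTCF match at chr3:103383358-103383389 (minus strand), nearest gene Trim33: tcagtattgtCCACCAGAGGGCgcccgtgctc
CTCF match at chr5:106802572-106802603 (minus strand), nearest gene Zfp644: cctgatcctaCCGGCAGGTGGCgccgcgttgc
The match beside Pcmtd1 lay in a region with signals of 3.31, 8.87 and 6.03 in replicates 1, 2 and 3. That region is 192 bp from a TSS of the non-coding gene Gm26901. The region beside Ppp6c had 2.89, 6.97 and 5.05, and the region beside Zxdb had 3.74, 7.41 and 4.77. All 5 regions stood at or above percentile 74.4 of the peaks of each library, the lowest being the region beside Zfp644 in replicate 3. Signal is the peak height deposited by the authors, scaled per library by them, so a height is compared within a library or as a percentile, which is the percentage of that library's peaks with a lower signal.

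The TAL1-GATA composite, in which the E-box part CTG stands 5′ of a GATA word, is the sequence most closely tied to red cell enhancers. It was found in 23 desert regions, and the 6 strongest of them are shown with the whole composite in capitals.
TAL1-GATA match at chr6:50890947-50890983 (minus strand), nearest gene Npvf: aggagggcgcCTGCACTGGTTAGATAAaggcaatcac
TAL1-GATA match at chr7:128854853-128854889 (minus strand), nearest gene Sec23ip: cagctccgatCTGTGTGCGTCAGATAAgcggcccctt
TAL1-GATA match at chr5:64588095-64588131 (plus strand), nearest gene Klf3: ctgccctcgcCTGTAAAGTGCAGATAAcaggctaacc
TAL1-GATA match at chr2:21964239-21964275 (minus strand), nearest gene Myo3a: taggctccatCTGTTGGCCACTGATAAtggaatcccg
TAL1-GATA match at chr16:93147645-93147681 (plus strand), nearest gene Runx1: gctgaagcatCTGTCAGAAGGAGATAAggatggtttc
TAL1-GATA match at chr5:64590896-64590932 (minus strand), nearest gene Klf3: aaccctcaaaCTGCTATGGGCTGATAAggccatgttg
The region between Npvf and Nfe2l3 had signals of 1.61, 7.50 and 6.94 in replicates 1, 2 and 3, at percentiles 63.4, 94.9 and 92.2. The region beside Sec23ip had 1.40, 6.35 and 8.82, and the first region beside Klf3 had 0.974, 3.43 and 6.47. Klf3 encodes a zinc-finger factor of red cell precursors that is itself a target of KLF1. In the region beside Runx1, which encodes a master regulator of blood stem cells, the signals were 0.907, 2.54 and 6.22. All 6 regions stood at or above percentile 88.3 in replicates 2 and 3 and at or below percentile 63.4 in replicate 1.

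For the genes of blood formation with desert regions beside them, 200 bp around the middle of a region show how GATA words sit in it. The windows below are the strongest TAL1-GATA region and the strongest regions beside Runx1 and Kit that have a GATA word under a footprint in at least 1 library. Capitals mark GATA words (AGATAA or TGATAA, on either strand) and the TAL1-GATA composite. Bases are counted from 1 at the left end.
Window between Npvf and Nfe2l3, chr6:50890891-50891090 (plus strand): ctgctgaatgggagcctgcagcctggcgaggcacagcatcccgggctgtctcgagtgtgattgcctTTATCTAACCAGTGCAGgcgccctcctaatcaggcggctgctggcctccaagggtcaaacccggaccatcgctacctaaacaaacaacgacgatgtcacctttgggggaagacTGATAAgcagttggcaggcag
Window beside Runx1, chr16:93147621-93147820 (plus strand): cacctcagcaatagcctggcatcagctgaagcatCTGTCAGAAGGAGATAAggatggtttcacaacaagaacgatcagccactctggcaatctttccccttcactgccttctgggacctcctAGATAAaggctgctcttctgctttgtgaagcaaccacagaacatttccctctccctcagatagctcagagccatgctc
Window beside Kit, chr5:75460593-75460792 (plus strand): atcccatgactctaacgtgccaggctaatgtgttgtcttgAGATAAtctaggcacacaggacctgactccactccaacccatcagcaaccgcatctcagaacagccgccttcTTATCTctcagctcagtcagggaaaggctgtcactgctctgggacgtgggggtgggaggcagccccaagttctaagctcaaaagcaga
In the window between Npvf and Nfe2l3 the composite covers bases 67 to 83. A footprint spanned bases 66 to 96 in replicate 2 and bases 74 to 97 in replicate 3. The nearest footprint of replicate 1, at bases 79 to 91, touched only the end of the composite. On this strand the GATA word of the composite is its left end, from base 67. Only the footprint of replicate 2 covered that word, as the one of replicate 3 began to its right. The composite beside Runx1, at bases 35 to 51, lay under a footprint from base 28 to 55 in replicate 2 and from base 24 to 55 in replicate 3. Replicate 1 had a single footprint in that window, at bases 113 to 119. In the Kit window, replicate 2 had a footprint at bases 112 to 120 over the GATA word at bases 113 to 118, which neither replicate 1 nor replicate 3 had.

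Further desert regions are shown in the next windows. The first is the strongest CpG-rich region, with CG in capitals. The second is the strongest region with a CTCF core under a footprint in all 3 libraries, with the core in capitals. This second region is itself CpG-rich and lies 192 bp from a TSS of the non-coding gene Gm26901, so it is not in the CTCF group used below. The third is the strongest region that is neither CpG-rich nor copied by the rule given with the strongest regions (similar sequence with mismatches lies at 12 other places). Its capitals mark the bases that a footprint covered in all 3 libraries.
Window between Zfat and Khdrbs3, chr15:68363291-68363490 (plus strand): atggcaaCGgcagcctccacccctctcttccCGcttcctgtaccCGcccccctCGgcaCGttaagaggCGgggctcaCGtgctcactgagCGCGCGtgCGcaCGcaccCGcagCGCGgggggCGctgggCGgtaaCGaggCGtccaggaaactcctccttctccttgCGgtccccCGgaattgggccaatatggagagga
Window beside Pcmtd1, chr1:7398091-7398290 (plus strand): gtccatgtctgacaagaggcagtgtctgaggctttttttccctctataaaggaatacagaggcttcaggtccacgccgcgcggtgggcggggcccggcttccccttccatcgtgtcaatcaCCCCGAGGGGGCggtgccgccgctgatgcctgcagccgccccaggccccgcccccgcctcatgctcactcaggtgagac
Window far from Cdh20, chr1:102628161-102628360 (plus strand): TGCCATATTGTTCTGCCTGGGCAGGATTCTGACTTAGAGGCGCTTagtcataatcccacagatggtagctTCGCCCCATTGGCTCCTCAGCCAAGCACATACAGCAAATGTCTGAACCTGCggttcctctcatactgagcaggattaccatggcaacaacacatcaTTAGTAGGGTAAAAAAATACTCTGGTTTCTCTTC
The CpG-rich window between Zfat and Khdrbs3 holds 21 CG pairs, and a footprint lay at bases 41 to 57 in replicate 1, 40 to 58 in replicate 2 and 40 to 59 in replicate 3. In the window beside Pcmtd1 the CTCF core at bases 122 to 133 lay under footprints from base 122 to 134 in replicate 1, from 120 to 144 in replicate 2 and from 121 to 143 in replicate 3. The window far from Cdh20 had 130 of its 200 bases under footprints in every library. Its central footprint was 57, 58 and 51 bp wide in replicates 1, 2 and 3, against medians of 13, 25 and 14 bp for the widest footprint of a desert region in those libraries.

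Shared open regions were sparse in deserts. The stretch of the genome that meets the rule amounted to 865 Mb, which is 32.7% of the 2648 Mb of sequenced bases, and it held 0.773 shared regions per Mb, against 9.81 per Mb over the whole genome. Outside gene bodies the density was lower with each step away from a TSS. It was 63.6 per Mb within 1 kb, 4.32 per Mb at 50 to 100 kb, 1.66 per Mb at 100 to 200 kb, 0.632 per Mb at 200 to 500 kb and 0.117 per Mb beyond 500 kb. The median distance to the nearest protein-coding TSS was 166306 bp. Of the 668 regions, 250 lay more than 200 kb away, 31 more than 500 kb and 6 more than 1 Mb. Chromosome 13 held the most, with 50 regions at 1.27 per Mb, while chromosome X held 23 at 0.391 per Mb and chromosome Y held 2.

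**Figure D1:**
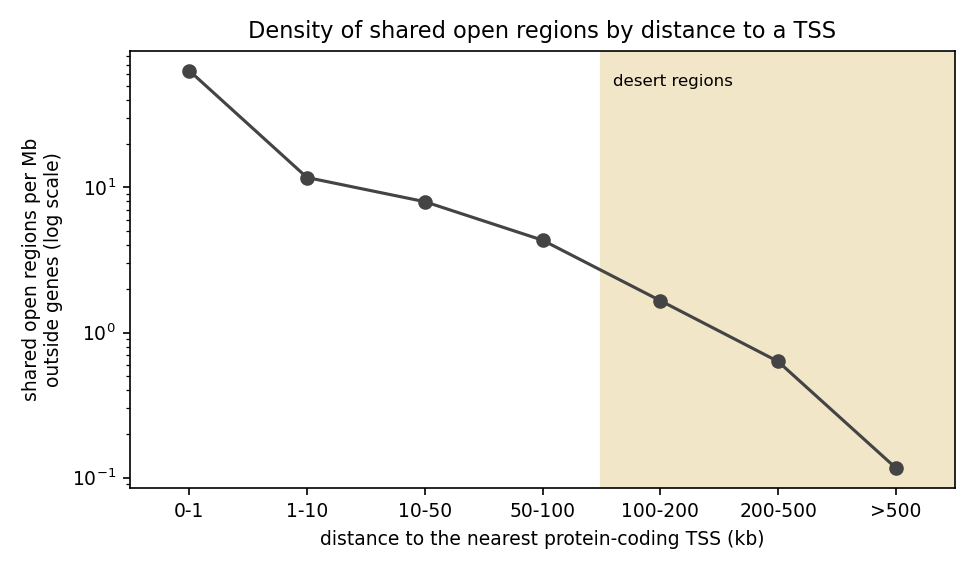
Density of open regions shared by all 3 libraries, per Mb of sequenced bases outside protein-coding genes (y axis, log scale), by distance to the nearest protein-coding TSS in kb (x axis), with the desert range shaded. The density goes from 63.6 per Mb within 1 kb to 0.117 per Mb beyond 500 kb.

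The regions at the edge of the rule are given on both sides. The nearest regions inside the threshold lay 100.042 kb from Aatf, 100.434 kb from Chic2 and 100.481 kb from Bbox1, with signals of 0.672, 0.918 and 0.750 in replicate 1, 1.55, 1.15 and 0.875 in replicate 2, and 2.19, 0.602 and 0.429 in replicate 3. The nearest outside lay 99.94 kb from Mki67, 99.932 kb from 4930544G11Rik and 99.917 kb from Ralgapa2, with signals of 0.705, 0.493 and 1.12 in replicate 1, 2.49, 0.896 and 1.21 in replicate 2, and 3.33, 2.54 and 0.810 in replicate 3. The ranges of the 2 sides overlapped in each library, and in replicate 3 the outside regions included the 2 highest of the 6 signals.

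Desert regions were among the weaker of the shared peaks. Their median signal was 0.739, 0.870 and 0.578 in replicates 1, 2 and 3, at percentiles 25.3, 74.8 and 40.6 of all peaks of the library (46.9 ± 25.3, SD, n = 3). Shared regions outside genes but nearer to a TSS stood at 49.2, 83.5 and 61.2, regions in gene bodies at 45.5, 83.3 and 60.8, and promoters, within 1 kb of a TSS, at 75.3, 93.3 and 83.8. The order of deserts below the other 3 places was the same in each library. The libraries also differed in the length of their lists, with 34369, 122281 and 60862 peaks in replicates 1, 2 and 3, and the percentiles followed the same order. The part of list length in the percentiles was not tested per library. Because peak calls chose the regions, these values are a description and no test was made of them. Across the 668 regions the signals of replicates 2 and 3 had a Spearman correlation of 0.857, those of replicates 1 and 2 of 0.696, and those of replicates 1 and 3 of 0.548. These are correlations across regions, which are not independent replicates.

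**Figure D2:**
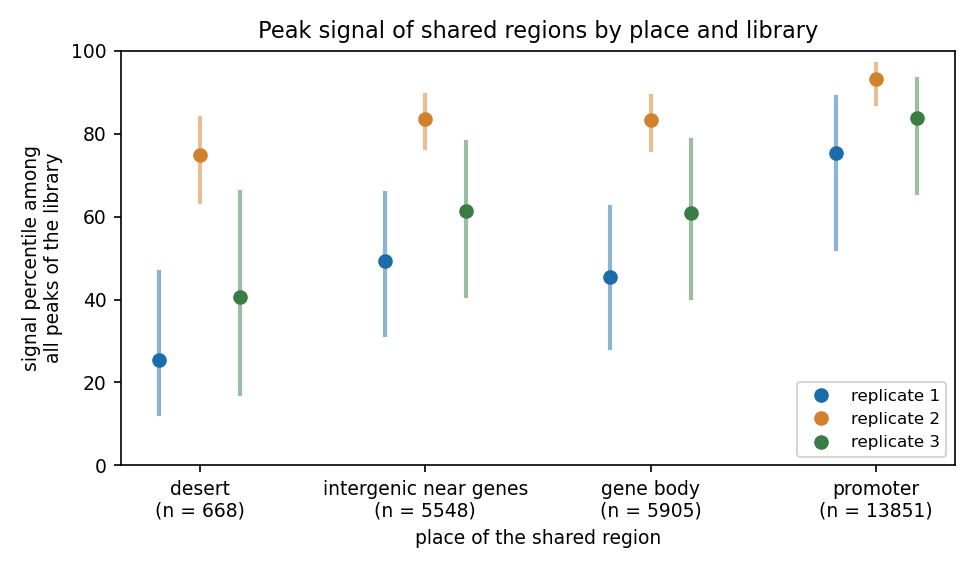
Signal percentile among all peaks of a library (y axis, 0 to 100) for shared regions by place (x axis). Points are medians over regions and vertical lines run from the 25th to the 75th percentile of the regions, coloured by replicate. The desert medians (25.3, 74.8 and 40.6) lie below those of the other 3 places in every library.

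Desert regions were as wide as other distal regions and carried fewer footprints. The median width was 220 bp, as it was for regions in gene bodies and near genes, with a range of 110 to 2480 bp. A footprint was found in 81.0%, 98.1% and 85.8% of desert regions in replicates 1, 2 and 3 (88.3% ± 8.80, SD, n = 3). It was found in all 3 libraries in 479 regions, or 71.7%, against a background of 86% over all shared regions. Only 4 regions had no footprint in any library. The mean number per region was 1.81, 3.57 and 2.34, against 2.35, 3.94 and 2.92 in shared regions nearer to genes. The stricter of the authors' peak lists held a peak in all 3 libraries for 282 desert regions, or 42.2%, where the background over all shared regions was 69.9%. That share was 57.3% in shared regions nearer to genes and 50.5% in gene bodies. When the rule was applied to the stricter lists alone, it found 282 regions, and 92.6% of them had a footprint in all 3 libraries.

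The CTCF core and the GATA word were found together in 24 desert regions, or 3.59%, against 1.84% of all shared regions. With copied and CpG-rich regions not counted among them, regions with both made up 3.44% in deserts. They made up 3.64% of shared regions nearer to genes and 3.30% of those in gene bodies, so deserts were like other distal regions. Of desert regions with the core, 11.8% also had a GATA word, against 26.7% of those without it. The CTCF core was found within the central 200 bp of 203 regions, or 30.4% (95% exact binomial interval 26.9 to 34.0%, which covers counting over regions only), and its reversed string in 0.299%. The share over all shared regions was 19.1%. By place, it was 34.6% in regions nearer to genes, 33.3% in gene bodies and 6.29% in promoters. The core lay under a footprint in all 3 libraries in 98 desert regions, or 14.7%, with a background of 13.4%. In regions nearer to genes that share was 25.3%. Of regions that have the core, it was 98 of 203 in deserts, 1401 of 1920 nearer to genes and 3471 of 4963 overall. Where the core was present, it was thus less often under a footprint in every library in deserts. Per library, the footprint covered the core in 132, 193 and 118 desert regions. A footprint counts as covering a match where it holds at least 50% of its bases.

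A GATA word (AGATAA or TGATAA, both strands) was found in 148 desert regions, or 22.2% (interval 19.1 to 25.5%), and its reversed string in 7.78%. The share was 11.9% over all shared regions, 17.2% in regions nearer to genes, 22.8% in gene bodies and 4.64% in promoters. The TAL1-GATA composite, in 23 regions or 3.44%, had a background of 1.56% and no match of its reversed string in deserts. By place, its share was 1.89% in regions nearer to genes, 3.9% in gene bodies and 0.347% in promoters, so gene bodies were not below deserts. A GATA word lay under a footprint in 13, 56 and 46 desert regions in replicates 1, 2 and 3, least often in replicate 1. It did so in all 3 libraries in 6 regions, or 0.898%, where the background was 0.678%. Of regions that have the word, this was 6 of 148 in deserts and 176 of 3090 over all shared regions, a smaller part in deserts. The composite was under a footprint in 1, 16 and 10 regions, and in none in all 3 libraries, with a background of 0.0655%.

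Words of other blood factors were nearer to their reversed strings. The KLF word CCNCNCCC, bound by KLF1, was in 28.1% of desert regions and reversed in 24.6%. Its reversed string is a C-rich word much like the original, so this pair cannot tell KLF matches from base composition. The word TGANTCA, bound by NFE2 and by AP-1, was in 4.94% and reversed in 4.19%. RUNX words (TGTGGTT or TGCGGTT) were in 7.19%, against 3.29% reversed, and ETS words (CCGGAAG or GAGGAAG) in 12.4%, against 9.73%. Among words of hepatocyte factors, the C/EBP word TTGCNNAA was in 9.58% of desert regions and reversed in 3.89%. FOXA words (TGTTTAC or TGTTTGC) were in 4.04% and reversed in 2.54%, and HNF4A words (CAAAGTCC or CAAAGGTC) in 2.69% and reversed in 2.40%. All words were searched on both strands, and words of different factors can overlap. For the all-region background, the shares in the same 200 bp were 48.1% for the KLF word, 4.07% for TGANTCA, 4.59% for RUNX, 16.8% for ETS, 5.78% for C/EBP, 4.17% for FOXA and 1.26% for HNF4A. The remaining searches were more general. The E-box CANNTG was in 67.8% of desert regions (reversed 33.7%, all regions 55.8%), the TEAD word GGAATG in 8.83% (reversed 4.64%, all regions 7.43%) and the SP word GGGCGG, typical of promoters, in 17.7% (reversed 18.4%, all regions 41.8%). For the SP word, too, the reversed string resembles the original and is a weak comparison. The HNF1 and NFI motifs, given by name, were in 3 and 6 desert regions. A match is a description of letters and does not show that the factor was bound.

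**Figure D3:**
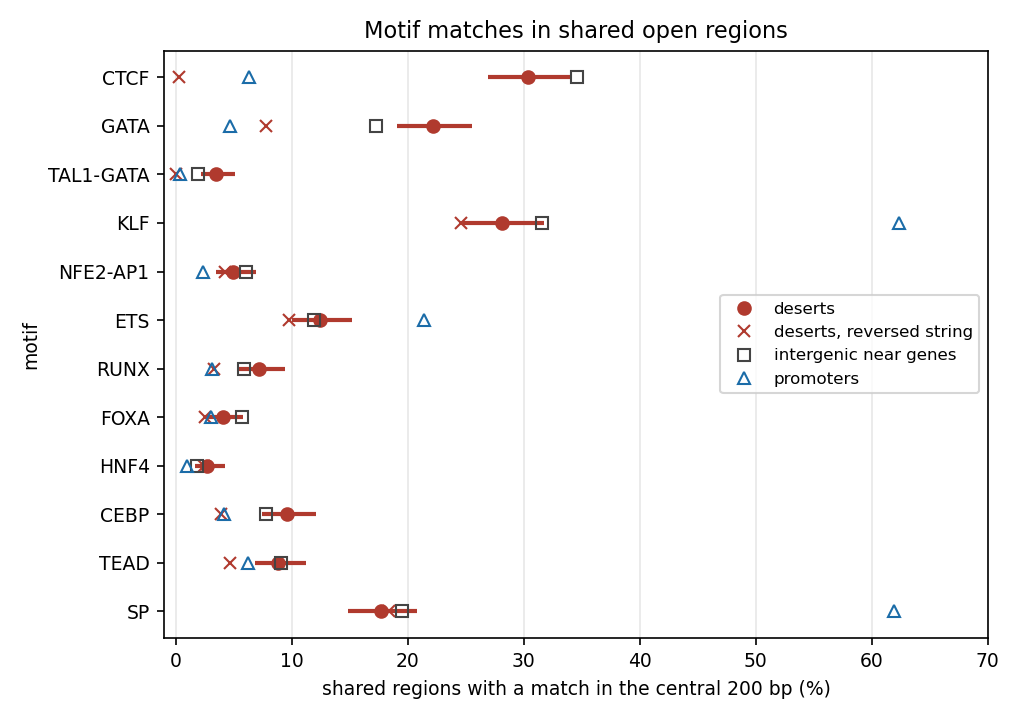
Percentage of shared regions with a motif match in the central 200 bp (x axis) for 12 motifs (y axis). Filled circles are desert regions with the 95% exact binomial interval, crosses the reversed string in the same regions, squares intergenic regions nearer to genes and triangles promoters. The 12 are the 15 searched without the E-box, HNF1 and NFI, and CTCF is at 30.4% against 0.299% reversed and GATA at 22.2% against 7.78%.

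The signal of CTCF and GATA regions differed by library. Regions were sorted by sequence into CTCF only (167 regions), GATA only (116), both (23), CpG-rich (74), copied (37) and other (251), leaving copied and CpG-rich regions out of the motif groups. CTCF regions had median signals of 0.773, 0.764 and 0.450 in replicates 1, 2 and 3, at percentiles 27.6, 72.0 and 26.7. GATA regions had medians of 0.616, 1.28 and 1.29, at percentiles 16.7, 81.2 and 69.0. The GATA median was thus 0.797 times the CTCF median in replicate 1, 1.67 times in replicate 2 and 2.86 times in replicate 3. GATA regions were the weaker in replicate 1 and the stronger in the other libraries. Of the 116, 103 (88.8%) had a higher percentile in replicate 3 than in replicate 1, against 72 of the 167 CTCF regions (43.1%). In the group of other regions it was 155 of 251 (61.8%), and in the remaining groups 59.5 to 63.5%. These percentiles come from peak lists of different length. In regions with a stricter peak in all 3 libraries (27 GATA and 74 CTCF) the ratios were 0.812, 2.82 and 6.18. The pattern was not particular to deserts: the ratios were 0.794, 1.87 and 3.66 in shared regions nearer to genes and 0.788, 2.03 and 4.49 in gene bodies. Depth and the make-up of the tissue may differ between the libraries, and their part in these ratios was not tested.

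**Figure D4:**
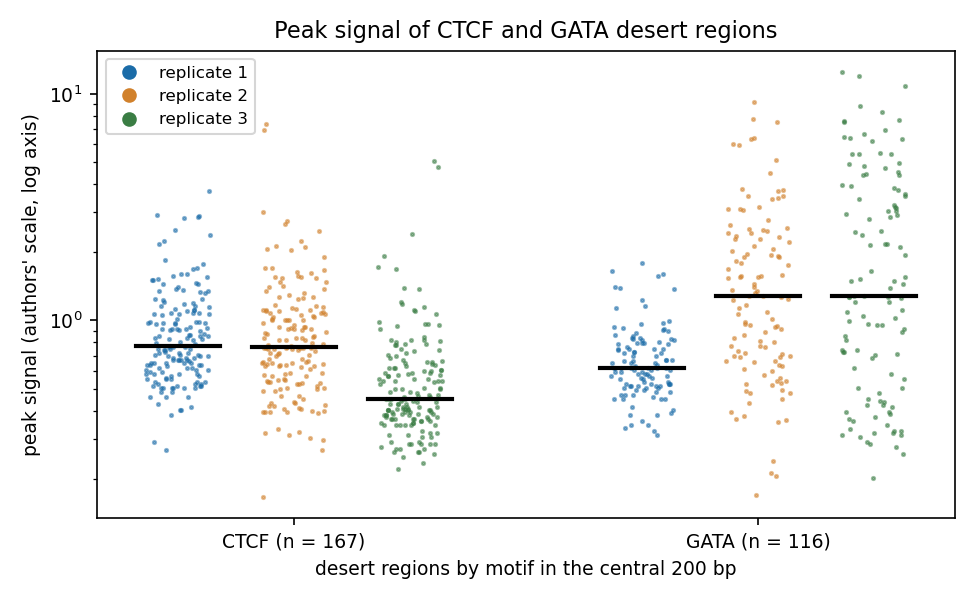
Peak signal on the authors' scale (y axis, log scale) of desert regions with only a CTCF core (167) or only a GATA word (116) in the central 200 bp, by replicate (colours). Each dot is a region and black bars are medians. The GATA median is below the CTCF median in replicate 1 (0.616 against 0.773) and above it in replicate 3 (1.29 against 0.450).

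The widest footprint of a CTCF region had a median of 17, 29 and 14 bp in replicates 1, 2 and 3, and that of a GATA region 10, 18 and 14 bp. CTCF regions thus had the wider footprints in replicates 1 and 2, and the medians were equal in replicate 3. The core of a CTCF region was under a footprint in 65.9%, 95.2% and 58.1% of the 167 regions, whereas a GATA word of a GATA region was under one in 8.62%, 43.1% and 37.1% of the 116. Within a library, regions whose motif lay under a footprint had the higher median signal. The difference was small for GATA regions in replicate 1, with 0.649 in the 10 regions with such a footprint and 0.616 in the 106 without. In replicate 3, GATA regions had a median signal of 3.13 with such a footprint and 0.817 without. CTCF regions had 0.595 with and 0.367 without. The part of signal in the footprint shares was not tested.

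The balance between the motifs depended on which libraries had to have a peak. With replicates 2 and 3 alone the rule found 2099 desert regions, of which 33.8% had a GATA word and 14.7% the CTCF core, the opposite order. With replicates 1 and 2 it found 1001, with 17.5% and 28.3%. With replicates 1 and 3 it found 676, with 21.7% and 30.6%. When equal numbers of the strongest peaks were taken per library (34369), 282 desert regions were left, and 31.2% had a GATA word against 20.6% with the CTCF core. Desert regions with a peak in replicates 2 and 3 and none in replicate 1 numbered 1431. Of these, 562 (39.3%) had a GATA word, 168 its reversed string, and 104 (7.27%) the CTCF core. The 335 regions with a peak in replicates 1 and 2 and none in replicate 3 held a GATA word in 35 (10.4%), the reversed string in 30 and the CTCF core in 80 (23.9%). Regions missing from 1 library mostly had no position there that passed the authors' false discovery rate of 0.05. Such positions were found in 62 of the 1431 regions in replicate 1 and in 28 of the 335 in replicate 3. Positions and peaks come from the same library, so this is no separate evidence that the regions were closed there. A further 10194 desert regions had a peak in a single library, 8695 of them in replicate 2.

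The strongest desert regions were mostly copied or CpG-rich. The first, at chr17:39846781-39846920 between Esp15 and Esp38, had signals of 62.8, 123 and 44.3 and overlapped Rn18s-rs5, which RefSeq lists as a pseudogene related to 18S ribosomal RNA. The share of its 36-base words found elsewhere in the genome was 81.9%. The next, at chr3:5860361-5860530, had 28.2, 61.6 and 23.7, and all of its words occurred elsewhere, with a median of 6 copies. How reads from near-identical copies were placed is not given in the sources used here, and its part in these signals was not tested. Copied regions, with 50% or more of their words found elsewhere, made up 37 of the 668, or 5.54%, against 1.24% of all shared regions. Apart from these 2, the strongest desert regions were at or below 9.24, 17.9 and 12.5 in replicates 1, 2 and 3.

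Of the 10 strongest regions, 3 were copied and 6 of the others were CpG-rich, meaning that the central 200 bp had a GC content of at least 60% and at least 5 CG pairs per 100 bases. The region between Zfat and Khdrbs3 had signals of 5.15, 17.9 and 11.6 and lay 65 bp from a TSS of the non-coding gene Gm20732. The region beside Ogfrl1 had 4.88, 13.3 and 9.83 and lay 87 bp from Gm6420. The region between Lemd2 and Grm4 covered a TSS of the non-coding gene Gm10505, with 4.69, 14.6 and 12.5. The region beside Pcmtd1 covered a TSS of Gm26901, with 4.77, 14.6 and 8.25. The region between Kif2a and Ndufaf2 lay 37 bp from a TSS of Zswim6, which GENCODE M21 types as a processed transcript and not as protein-coding, with 4.62, 11.9 and 7.42. These 5 regions lay at start sites of genes that the rule did not count.

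CpG-rich regions made up 82 of the 668, or 12.3%, against 45.2% of all shared regions, most of which were promoters. The share was 12.7% in shared regions nearer to genes and 11.9% in gene bodies, much as in deserts. A TSS of a gene that is not protein-coding lay within 1 kb of 106 desert regions, or 15.9%, with a background of 12.5%. The nearest such gene was a long intergenic non-coding RNA (lincRNA) for 55, a processed pseudogene for 12 and a processed transcript for 11. Variable segments of T cell receptor and immunoglobulin genes accounted for 6 more. Of the 106, 36 (34.0%) were CpG-rich, against 46 (8.19%) of the other 562. Their percentiles were 36.3, 78.6 and 50.8 in replicates 1, 2 and 3, against 23.7, 73.7 and 38.4 for the others. The annotation also mattered in another way: 21 desert regions lay inside genes that RefSeq lists as protein-coding, and only 53 regions remained when genes of all types bounded the deserts.

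The only one of the 10 outside both definitions was the region at chr1:102628161-102628360, shown above as the window far from Cdh20. It lay 2140 kb from the TSS of Cdh20, a cadherin gene, and had signals of 9.24, 13.9 and 8.18, at percentiles 99.6, 97.8 and 93.7. Its GC content was 47.0%, it held none of the CTCF or GATA motifs, and 30.9% of its words occurred elsewhere. An alignment search that allows mismatches found 12 other places with similar sequence, the longest over 180 bases at 93.9% identity. Its letters resemble those of 28S ribosomal RNA, of which the RefSeq table used here holds a 420 bp fragment only, so the resemblance was not tested. The part of reads from such copies in its signal and its wide footprints was not tested either. By the same search 5 of the 6 CpG-rich regions had no similar place, and the region covering a TSS of Gm26901 had 3. The Cdh20 region was among the 5 regions farthest from any protein-coding TSS in GENCODE, and lay 169 kb from the TSS of Gm20281, a gene of another type. Of the others, the region 1252 kb from Csmd3 had 1.10, 1.43 and 0.388, and the region 1122 kb from Cited2, with a GATA word, had 0.481, 0.889 and 1.50. The region 1157 kb from Gm10330 covers a TSS of Gm40864, a processed transcript in GENCODE that RefSeq lists as a protein-coding gene. This region was copied in 91.9% of its words and had 0.515, 0.757 and 0.277. The farthest of all, 2195 kb from Pik3c3, had 0.437, 0.313 and 0.208. Beyond 500 kb the 31 regions had median percentiles of 10.5, 66.2 and 18.3, and 45.2% had a footprint in all 3 libraries.

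The 5 weakest regions stood at or below percentile 3.63 in replicates 1 and 3, and at percentiles 15.5 to 28.2 in replicate 2. The region 590 kb from Adam34 had 0.313, 0.139 and 0.201 and no footprint in any library. Weak regions also gathered at the start of chromosome 4. The gap before Vmn1r2, a gene of the vomeronasal receptor family, held 10 desert regions within 16.3 kb, next to the unsequenced end of the chromosome. These had signals of 0.269 to 0.448 in replicate 1, 0.205 to 0.281 in replicate 2 and 0.187 to 0.325 in replicate 3, at median percentiles 4.40, 32.1 and 1.80. They included the 3 widest desert regions, of 2480, 1600 and 1222 bp. In all, 31 desert regions lay within 50 kb of a run of unknown bases, and 637 remained without them. The part of the assembly's edge in these peaks was not tested.

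Desert regions were unevenly spread over the gaps between protein-coding genes. Of 2094 gaps with sequence that meets the rule, 427 (20.4%) held a desert region. A single region was found in 277 of them, and 10 gaps held 5 or more, with 65 regions between them. Another desert region lay within 20 kb of 187 regions (28.0%), and within 1 kb of 75. Without the regions near unknown bases the share with a neighbour was 25.7%.

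The gap between Tbc1d1 and Klf3 on chromosome 5 held 8 regions, or 22.7 per Mb, and all 8 had a footprint in all 3 libraries. The strongest in replicate 3, at chr5:64435581-64435820, had signals of 1.55, 7.75 and 12.4 and none of the CTCF or GATA motifs. The CpG-rich region at chr5:64505301-64505520 had 2.12, 6.21 and 4.41. The 2 regions with the TAL1-GATA composite lay 215 and 212 kb from the Klf3 TSS and had 0.974, 3.43 and 6.47, and 0.896, 3.10 and 6.38. Both were at or below percentile 40.1 in replicate 1 and at or above 89.9 in the other libraries.

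The gap between Npvf and Nfe2l3 on chromosome 6 also held 8 regions, all with a footprint in every library. The strongest in replicate 2, at chr6:51178561-51178780, had signals of 2.69, 9.33 and 7.46. The CpG-rich region at chr6:51270921-51271180 had 3.30, 7.16 and 5.90 and lay 1011 bp from the start of Mir148a, a microRNA gene. CTCF cores were found in 3 regions of this gap, 2 of them with a footprint over the core in all 3 libraries. The CTCF region at chr6:50937221-50937400 had 0.985, 0.938 and 0.374, lower in replicate 3 than in replicate 1, while the TAL1-GATA region shown above had 1.61, 7.50 and 6.94.

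The gap between Olfr1507 and Dad1 on chromosome 14 spans the T cell receptor alpha and delta locus, whose segments are not typed as protein-coding, and held 7 regions. Their signals ran from 0.448 to 1.12 in replicate 1, from 0.326 to 2.02 in replicate 2 and from 0.312 to 1.78 in replicate 3. The 2 regions beside the variable segments Trav13n-4 and Trav13-4-dv7 were copied in 52.4% and 77.3% of their words. The gap between Ubl3 and Katnal1 on chromosome 5 held 6 regions, all with a footprint in every library, and 3 of them had the CTCF core with a footprint over it in all 3 libraries.

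Gaps beside genes of blood formation held desert regions at 1.70 per Mb, those beside liver genes at 1.21 per Mb and those beside regulators of other organs at 0.632 per Mb, where all deserts had 0.773 per Mb. From a list of 48 blood genes, 25 of 45 gaps held 45 desert regions, which is 6.74% of the regions in 3.07% of the desert sequence. A GATA word was found in 11 of these 45 regions and the CTCF core in 10, where the shares over all desert regions were 22.2% and 30.4%. The GATA share beside blood genes was thus close to that of all deserts, and the CTCF share was below it. From a list of 23 liver genes, 5 of 17 gaps held 6 regions, or 0.898% of the regions in 0.574% of the sequence. From 80 regulators of other organs, 19 of 83 gaps held 30 regions, or 4.49% of the regions in 5.49% of the sequence. Gaps can be bounded by genes of more than 1 list, and no test was made of these shares. The lists were chosen with earlier results of these data known, so the densities are a description only. The liver value rests on 6 regions in 4.96 Mb. The value of all deserts includes 59.5 Mb of chromosome Y at 0.0336 per Mb.

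**Figure D5:**
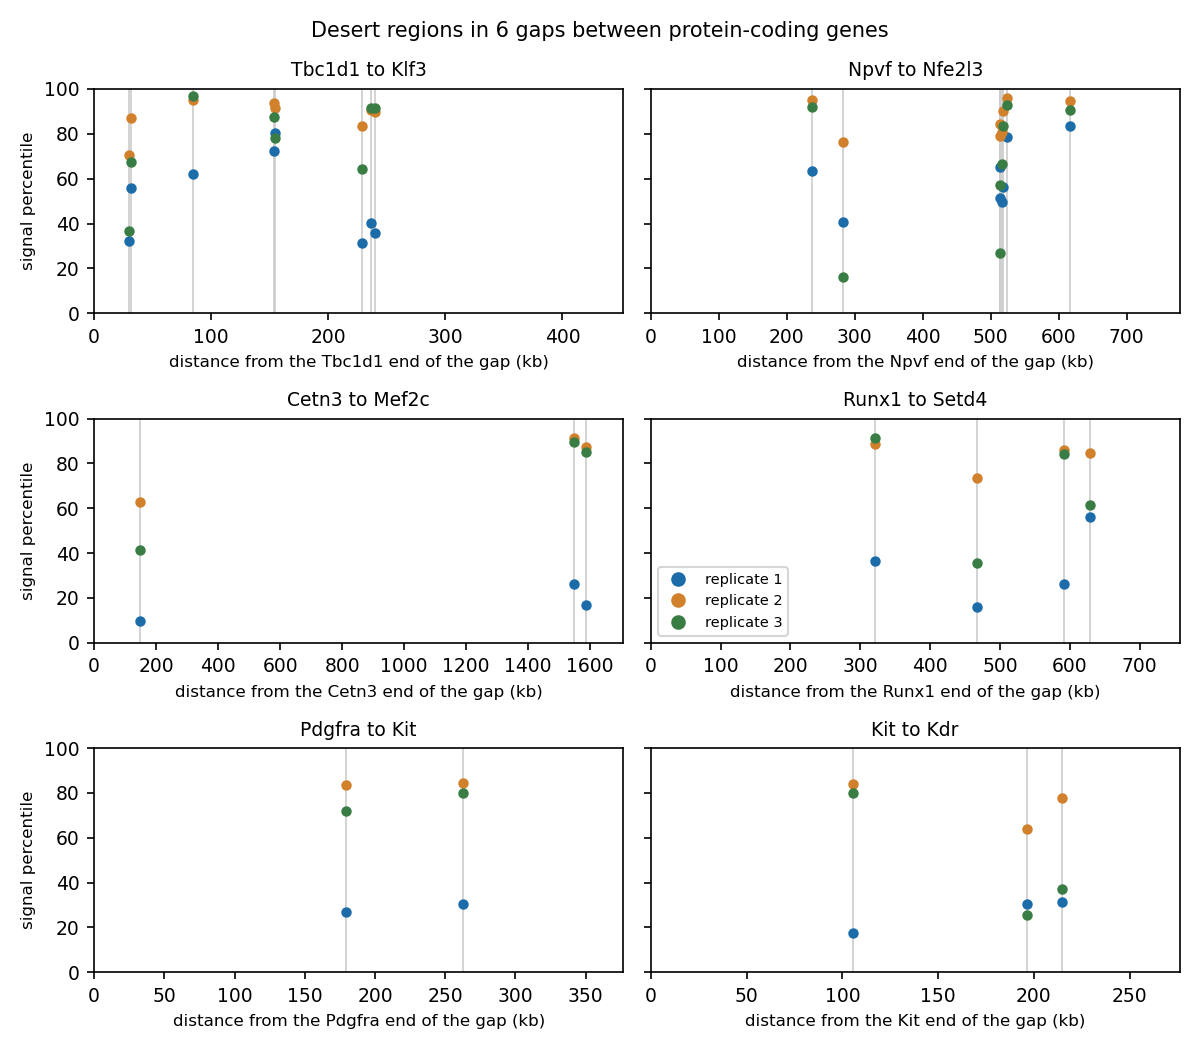
Signal percentile (y axis, 0 to 100) of each desert region in 6 gaps between protein-coding genes, by distance in kb from the left-hand gene's end of the gap (x axis, full length of the gap), with replicates in colour and a grey line at each region. The Tbc1d1 to Klf3 and Npvf to Nfe2l3 gaps hold 8 regions each, and the Cetn3 to Mef2c gap holds 3.

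Kit encodes the receptor for stem cell factor, which red cell precursors need to survive, and desert regions lay on both sides of it. Between Pdgfra and Kit, regions 197 and 114 kb from the Kit TSS both had GATA words. The farther one had signals of 0.761, 1.55 and 1.50, and the nearer one, shown above, had 0.817, 1.68 and 2.49. Between Kit and Kdr, the region 187 kb from Kit had a GATA word and signals of 0.627, 1.58 and 2.46. The 2 regions nearer to Kdr, which encodes the main VEGF receptor of endothelial cells, had the CTCF core instead. Their signals were 0.817, 0.566 and 0.443, and 0.829, 1.02 and 0.540. The GATA regions stood at percentiles 26.9, 30.5 and 17.5 in replicate 1 and 72.0, 80.2 and 80.0 in replicate 3, in the order given. The CTCF regions stood at 30.5 and 31.3 in replicate 1 and at 25.8 and 37.1 in replicate 3. By percentile, replicate 3 was thus far above replicate 1 in these GATA regions, and in these CTCF regions the 2 libraries were close. The 2 libraries have peak lists of different length, whose part was not tested.

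Beyond Runx1, the desert towards Setd4 held 4 regions. The TAL1-GATA region, 321 kb from the nearest Runx1 TSS, had signals of 0.907, 2.54 and 6.22. The GATA region 185 kb from Setd4 had 0.750, 1.90 and 3.43, and the CTCF region 149 kb from it had 1.34, 1.68 and 0.955. Mef2c encodes a transcription factor of muscle, brain and blood. Of 3 regions in the gap between Cetn3 and Mef2c, those 121 and 159 kb from Mef2c had GATA words and signals of 0.616, 2.22 and 3.61, and 0.750, 3.77 and 5.41. Beside Bcl11a, which encodes the repressor of fetal globin genes, the region 224 kb away had 0.627, 0.563 and 0.381.

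The 6 regions beside liver genes stood at 1.21 per Mb, above the density of all deserts, but 6 regions are few for a density. In the gap between Nr5a2, which encodes a nuclear receptor of bile acid synthesis, and Ptprc, the leukocyte surface gene CD45, a region 277 kb from Ptprc, at a TSS of the non-coding gene Gm4258, had signals of 1.63, 2.82 and 2.51 at percentiles 63.9, 89.3 and 80.3. Between Med13l and Tbx3, a T-box gene needed for liver bud growth, a CpG-rich region had 1.15, 1.15 and 0.408. The 2 regions between Snx13 and Ahr, the dioxin receptor gene, were weak, with 0.459, 0.313 and 0.305, and 0.504, 0.396 and 0.277. The remaining 2 of the 6 lay on either side of Gata6, which encodes a GATA factor of early liver, and both had a GATA word. The one towards Mib1 had 0.481, 0.563 and 0.422 and the one towards Rbbp8 had 0.448, 0.761 and 0.415, at or below percentile 23.2 in replicates 1 and 3 in both cases.

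Promoter peaks matched the tissue label unevenly between libraries. Over 21827 protein-coding genes, the share with a peak within 1 kb of a TSS was 54.0% in replicate 1, 67.3% in replicate 2 and 56.4% in replicate 3. Promoters of erythroid markers had one in 9, 10 and 10 of 10 cases. For 10 hepatoblast markers the numbers were 4, 9 and 8, and Alb had none in any library. Of 5 mesenchymal markers 4, 5 and 4 had one, of 5 macrophage markers 0, 4 and 3, of 5 endothelial markers 1, 2 and 1, and of 4 neural markers 1, 3 and 1. A promoter without a listed peak is not shown to be closed at this depth.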

How the data were processed

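DNase-seq of 3 libraries (1 group) was used as deposited, on mm10. Peak signal was deposited by the authors as a height per peak, scaled per library. Each library has 2 peak lists, the longer of which was used and the shorter (stricter) set beside it. Per the text listing that the authors deposited with each library, peaks and footprints come from its filtered alignments, and replicates were not pooled. Which peak and footprint callers were used is not given in the sources used here. Per position, the authors deposited q-values (false discovery rates), which hold only values up to 0.05. The footprint files also carry another value, 0.01 in every row, whose meaning the authors' deposited files do not give, and only the footprint positions were used.

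Peaks sharing at least 1 bp were merged across libraries, and distances were taken to 21938 protein-coding gene bodies and their start sites in the basic set of GENCODE M21. Motifs, GC content and masking were read in 200 bp around each region's midpoint in the RefSeq GRCm38 genome, with reversed motif strings as a comparison. Copies were counted as exact words of 36 bases on either strand, and similar sequence of the 10 strongest regions was searched with blastn 2.17.0. Merging, distances, motif search and the copy count were tested on simulated data. Python 3.11.15, pandas 2.3.3, numpy 2.4.6, scipy 1.17.1, numba 0.67.0 and matplotlib 3.10.9 were used. Depth in reads was not used here, and depth is described by the number of peaks per library.

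With 1 group no test between groups was made. Values are given per library or as mean ± SD over 3 libraries. The members and the gene and motif lists were chosen with earlier results of these data known. Regions named are the 10 strongest (ordered by the worst of their 3 signal ranks), the 5 weakest, farthest and widest, those with the most footprints, the 3 nearest on each side of the threshold, the strongest with a CTCF core under a footprint in all 3 libraries and the strongest with a TAL1-GATA composite, and those in the fullest gaps or in gaps beside blood and liver genes. The definition of CpG-rich regions, the comparison of GATA with CTCF regions, the blastn search and the window beside Cdh20 were chosen after seeing the values. Alternatives were the stricter list, other distances, all gene types, other joining rules, equal numbers of peaks, leaving out each library, other motif windows and leaving out copied regions. A 200 bp window and the gap it lies in are not reported here.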

Additional observations from a re-analysis of the deposited data

How the results depend on the processing

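Of 114 alternatives, 79 were counted as unchanged and 35 as moved, by rules that differed between values. Width, percentile and the GATA to CTCF ratio were set against the SD over libraries, and shares against a binomial interval over regions. The number and density of regions were set against a fixed fold cut-off and not a spread. By it, 1001 regions without replicate 3 counted as unchanged from 668. The SD for the ratio, 1.04, exceeds the replicate 1 ratio itself, 0.797. The counts of alternatives are thus no measure of stability. Most of the values are counts or shares with no direction of their own, and the order of the CTCF and GATA shares turned in 2 alternatives, without replicate 1 and with equal numbers of peaks. The number of desert regions, 668, became 282 with the stricter peak list, 1614 beyond 50 kb, 250 beyond 200 kb, 53 with genes of all types and 282 with equal numbers of peaks, and ran from 676 to 2099 with a library left out. Their density, 0.773 per Mb, became 0.326, 1.49, 0.408, 0.286 and 0.326 in the same order, and 0.782 to 2.43 with a library left out. The share with a footprint in every library, 71.7%, became 92.6% with the stricter list, 78.2% beyond 50 kb and 86.9% with equal numbers of peaks (67.9 to 71.8% with a library left out). The share with the CTCF core, 30.4%, became 24.8% beyond 200 kb, 26.4% with genes of all types and 20.6% with equal numbers of peaks (14.7 to 30.6%). The share with a GATA word, 22.2%, became 14.5% with the stricter list, 31.2% with equal numbers of peaks and 13.6% in 100 bp (17.5 to 33.8%). The share with a neighbour, 28.0%, became 23.0% with the stricter list, 36.6% beyond 50 kb, 20.8% beyond 200 kb, 7.55% with genes of all types, 35.1% with equal numbers of peaks, 22.5% within 10 kb and 36.5% within 50 kb (27.1 to 47.0%). Leaving out replicate 1 gave the 2099 regions, the 14.7% with the CTCF core and the 33.8% with a GATA word. The ratio of the GATA to the CTCF median signal with stricter peaks was 2.82 in replicate 2 and 6.18 in replicate 3, from 1.67 and 2.86, and stayed on the same side of 1 in each library in every alternative tried. The mean percentile (33.0 to 43.5 with a library left out) and the width (204.5 to 220 bp) moved by less than the spread between libraries. Joining touching peaks gave 667 regions, the comprehensive annotation 632, and leaving out copied regions 631. The causes were not tested, apart from the smaller or larger sets that the rules themselves make. No paired analysis was possible because the libraries form 1 group and no test was made.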

Other observations

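Of the 10 gaps with 5 or more desert regions, 2 others lie beside regulators of development. The gap between Opa1 and Hes1, which encodes a Notch target, held 5 regions, of which 2 had the CTCF core and 2 a GATA word. The gap between Fam49a and Mycn, which encodes a growth regulator, held 5 regions with signals of 0.627 to 1.86 in replicate 1, 1.49 to 3.63 in replicate 2 and 0.658 to 7.50 in replicate 3, and 4 of them had a footprint in every library.

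The gap between Mapkap1 and Gapvd1 was short (0.0496 Mb), with 4 desert regions within 7.26 kb, all with a footprint in every library. Their signals reached 3.54, 8.15 and 4.62 in replicates 1, 2 and 3. The widest desert region away from the start of chromosome 4, between Klf13 and Trpm1, spanned 963 bp, had a GATA word and had signals of 1.39, 4.49 and 7.61. The region with the most footprints in 1 library, 110 kb from Qrsl1, had 18 in replicate 2 but 1 in replicate 1 and 3 in replicate 3, with signals of 0.649, 1.56 and 3.16.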
